A study of Mus musculus with 8 samples.

Results

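Odorant receptors and vomeronasal receptors are the chemosensory receptors of the nose, and their genes stand in tandem arrays on most mouse chromosomes. Olfr genes encode odorant receptors, and each olfactory neuron is known to choose a single one. Vmn1r and Vmn2r genes encode the receptor families of the vomeronasal organ, which detects pheromones. The genes have short coding sequences, and the DNA between them is rich in interspersed repeats. They are regarded as silent in fibroblasts, although transcription was not measured in the data used here, so neither this nor the identity of the cells could be checked. The clusters were taken as the bodies of all annotated genes whose symbol starts with Olfr, Vmn1r or Vmn2r and a number, extended by 10 kb on each side and merged. The annotation (GENCODE M21 on mm10) holds 1738 such genes among 55450. There were 1407 Olfr, 210 Vmn1r and 121 Vmn2r genes, of which 274 are annotated as pseudogenes of 1 kind or another. Merging gave 671 clusters on 20 chromosomes with 36 Mb of sequence, or 1.36% of the assembly without gaps. Of these clusters, 379 held 1 receptor gene. Of all 344010 peaks in the 4 lists, 7072 overlapped a cluster by at least 1 bp.

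DRIP-seq maps RNA:DNA hybrids: restriction-digested DNA is pulled down with the S9.6 antibody, which binds hybrids, and sequenced. Such hybrids form in R-loops, where RNA pairs with 1 DNA strand and displaces the other. All cells were mouse embryonic fibroblasts (MEFs) of the Rtel1F/F;WT RNH1-GFP line. Their Rtel1 gene, for a helicase that unwinds DNA structures, is floxed, and they carry a transgene for wild-type RNaseH1 fused to GFP, the nuclease that degrades RNA in hybrids, induced by doxycycline. Adenovirus carrying GFP was the control (GFP cells), and adenovirus carrying Cre served to delete Rtel1 (Cre cells). From 48 h after infection, cells received doxycycline at 2 µg/ml for 48 h (DOX) or none (mock). Each of the 4 groups (GFP mock and GFP DOX, then Cre mock and Cre DOX, the order in which 4 values are given) had 1 DRIP library, for which 3 immunoprecipitations were pooled, and 1 list of peaks. There were therefore no replicates and no test between conditions was possible. Differences between lists are given as values, and 95% intervals cover counting error only. The depth of the libraries is unknown, and the 4 input libraries were not analysed here. Over Rtel1 itself both lists of GFP cells had 0 peaks, Cre mock had 2 and Cre DOX had 1, and peaks do not show whether the gene was deleted.

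The sequences that follow show the kinds of DNA the peaks lay on, all on the plus strand of mm10. Scores are 10 times the −log10 of the q-value of the peak caller and depend on the depth of the library. The region near the pseudogene Olfr718-ps1 on chromosome 5 had the best ranks over the lists, with scores of 266 (mock) and 128 (DOX) in GFP cells, and 206 (mock) and 92 (DOX) in Cre cells. It is intergenic, 7094 bp from Olfr718-ps1, and the stretch shown is 53.7% GC with no repeat-masked base, unlike most members. The region near Olfr1436 on chromosome 19, with scores of 84, 149, 202 and 111, came next, and its stretch is 33.0% GC and 65.7% masked. Both stretches are the 300 bases around the midpoint of the GFP mock peak.

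Region near Olfr718-ps1, chr5:143154787-143155086: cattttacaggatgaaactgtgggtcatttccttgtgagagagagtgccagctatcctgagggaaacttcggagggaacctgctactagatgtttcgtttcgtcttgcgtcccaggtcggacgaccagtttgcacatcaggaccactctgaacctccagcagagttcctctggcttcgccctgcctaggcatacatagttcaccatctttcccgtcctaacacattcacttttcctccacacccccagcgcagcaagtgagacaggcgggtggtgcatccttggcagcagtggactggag
Region near Olfr1436, chr19:12306989-12307288: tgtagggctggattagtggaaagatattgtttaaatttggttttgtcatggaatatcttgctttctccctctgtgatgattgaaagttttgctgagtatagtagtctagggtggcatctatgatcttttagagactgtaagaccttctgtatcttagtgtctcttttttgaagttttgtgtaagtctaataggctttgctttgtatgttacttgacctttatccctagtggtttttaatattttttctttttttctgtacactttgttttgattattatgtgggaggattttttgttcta

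Many regions held stretches that recur among the clusters. In the next sequences, capitals mark bases that belong to the 100 most common 20-mers of the cluster regions. The region near Olfr472 was in all 4 lists (scores of 114, 43, 96 and 84). The region near Olfr291, also in all 4 lists (31, 25, 43 and 35), held the most of these 20-mers among regions in all lists considered for display, which overlap no exon. The region 308 bp from Olfr1110 was the strongest found in Cre DOX alone (score 52).

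Region near Olfr472, chr7:107911370-107911669: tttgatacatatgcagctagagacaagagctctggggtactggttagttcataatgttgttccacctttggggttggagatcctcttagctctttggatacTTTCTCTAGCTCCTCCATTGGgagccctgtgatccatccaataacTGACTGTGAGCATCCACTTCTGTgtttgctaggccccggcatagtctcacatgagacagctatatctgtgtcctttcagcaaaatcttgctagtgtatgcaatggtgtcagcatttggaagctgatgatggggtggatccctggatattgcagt
Region near Olfr291, chr7:84866530-84866829: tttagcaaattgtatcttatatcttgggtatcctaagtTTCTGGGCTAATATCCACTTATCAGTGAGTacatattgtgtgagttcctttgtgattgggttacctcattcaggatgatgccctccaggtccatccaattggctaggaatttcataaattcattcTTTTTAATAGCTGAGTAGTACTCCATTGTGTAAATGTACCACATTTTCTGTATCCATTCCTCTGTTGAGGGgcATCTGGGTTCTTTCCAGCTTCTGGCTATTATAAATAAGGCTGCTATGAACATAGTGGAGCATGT
Region near Olfr1110, chr2:87133035-87133334: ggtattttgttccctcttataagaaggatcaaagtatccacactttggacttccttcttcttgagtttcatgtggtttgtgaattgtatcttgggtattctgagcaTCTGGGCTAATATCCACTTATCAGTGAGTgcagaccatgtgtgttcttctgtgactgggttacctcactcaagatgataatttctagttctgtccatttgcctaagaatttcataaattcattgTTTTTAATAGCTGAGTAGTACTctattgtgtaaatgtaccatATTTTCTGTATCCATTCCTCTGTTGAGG

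All 20 of the 20-mers near Olfr1110 were among the 79 in the stretch near Olfr291, and neither shared any with the 6 near Olfr472. No repeat annotation was used, so these stretches carry no family name here.

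Tandem repeats stood under some of the strongest members, and capitals mark the longest run of a repeated unit in the next sequences. The region 7018 bp from Olfr855 had the next highest score of Cre mock (203), with 71 bases that repeat TGGAA, and had a peak in every list but GFP DOX. The region 1226 bp from Vmn1r46 had the next highest score of Cre DOX (104), with 44 bases that repeat CT, and had a peak in all 4 lists.

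Region near Olfr855, chr9:19575379-19575599: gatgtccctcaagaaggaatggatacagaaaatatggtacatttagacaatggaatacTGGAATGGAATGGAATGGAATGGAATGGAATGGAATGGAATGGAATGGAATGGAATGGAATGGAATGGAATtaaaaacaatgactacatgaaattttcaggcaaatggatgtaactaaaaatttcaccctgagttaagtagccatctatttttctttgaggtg
Region near Vmn1r46, chr6:89988172-89988471: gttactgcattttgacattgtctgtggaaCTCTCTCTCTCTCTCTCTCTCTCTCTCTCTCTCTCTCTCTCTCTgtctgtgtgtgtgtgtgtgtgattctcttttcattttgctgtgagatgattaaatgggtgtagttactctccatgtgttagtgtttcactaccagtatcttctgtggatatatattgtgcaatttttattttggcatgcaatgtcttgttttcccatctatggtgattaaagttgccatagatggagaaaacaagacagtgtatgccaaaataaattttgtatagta

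The last sequences are narrow peaks in 1 list, shown whole, with no recurrent 20-mer. The strongest of GFP DOX alone (score 43) is 124 bp wide, wholly masked, and lies in an intron of Vmn2r118. The next strongest of Cre mock alone (score 70) is 135 bp wide with no masked base, 1391 bp from Olfr271-ps1.

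Intron of Vmn2r118, chr17:55596588-55596711: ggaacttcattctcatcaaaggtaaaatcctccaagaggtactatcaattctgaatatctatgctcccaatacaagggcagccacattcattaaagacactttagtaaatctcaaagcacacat
Region near Olfr271-ps1, chr4:52933905-52934039: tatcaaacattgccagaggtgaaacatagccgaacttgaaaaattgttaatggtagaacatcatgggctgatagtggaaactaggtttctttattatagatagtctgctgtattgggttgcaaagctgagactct

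Receptor clusters held more peaks than their share of the genome in every list. GFP mock had 1655 of its 87613 peaks in them (1.89%, 95% CI 1.80 to 1.98) and GFP DOX had 1204 of 60219 (2.00%, 1.89 to 2.11). Cre mock had 1557 of 91097 (1.71%, 1.63 to 1.80) and Cre DOX had 2656 of 105081 (2.53%, 2.43 to 2.62). The highest share was that of Cre DOX, and with 1 library a list the differences between lists have no replicate check. In peaks per Mb of sequence without gaps, the clusters had 46.0 in GFP mock against 32.9 in the rest of the assembly, a density ratio of 1.40 (1.33 to 1.47). The values were 33.5 against 22.6 in GFP DOX, a ratio of 1.48 (1.40 to 1.57). In Cre mock they were 43.3 against 34.3, with the lowest ratio of the lists, 1.26 (1.2 to 1.33). In Cre DOX they were 73.8 against 39.2, with the highest ratio, 1.88 (1.81 to 1.96). Of the cluster sequence, peaks covered 2.24% (mock) and 1.89% (DOX) in GFP cells, and 2.46% (mock) and 6.79% (DOX) in Cre cells.

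The higher density did not extend to the receptor genes themselves, except in Cre DOX. With gene bodies alone and no flanks the ratios were 0.919 (mock) and 0.817 (DOX) in GFP cells, and 0.763 (mock) and 1.17 (DOX) in Cre cells. The interval of GFP mock included 1 (0.831 to 1.01). Among peaks of which at most 50% is repeat-masked, counted per unmasked base, the ratios were 0.667 (mock) and 0.472 (DOX) in GFP cells, and 0.472 (mock) and 0.892 (DOX) in Cre cells, where the interval of Cre DOX included 1 (0.787 to 1.01). Mostly masked peaks, counted per masked base, had ratios of 1.46, 1.65, 1.56 and 1.76 in the same order. The higher density of peaks in the clusters thus lay in repeat-masked sequence.

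The cluster sequence differs from the rest of the assembly in these properties. Masked bases make up 46.7% of it against 36.2% of the rest, and its GC content is 38.5% against 41.7%. Of the member peaks, 85.4% (mock) and 90.0% (DOX) in GFP cells, and 85.5% (mock) and 90.0% (DOX) in Cre cells were more than 50% masked. The values for all other peaks were 63.3%, 62.6%, 53.5% and 74.8%. To compare like sequence, the genome was cut into 10 kb windows, which were grouped by GC content (steps of 1 percentage point) and masked share (steps of 10). The 3651 windows of which at least 50% lies in clusters then held 1672 peak midpoints in GFP mock where the other windows of the same groups predicted 1495, a ratio of 1.12 (1.07 to 1.17). The ratios were 1.07 (1.01 to 1.13) in GFP DOX, 1.10 (1.05 to 1.16) in Cre mock and 1.15 (1.11 to 1.19) in Cre DOX. Chromosome Y had 15 to 20 peaks in a list on 88.1 Mb. Leaving it out, as chosen after seeing the data, gave 1.07 (1.02 to 1.12), 1.00 (0.948 to 1.06), 1.04 (0.993 to 1.10) and 1.09 (1.05 to 1.13). At matched GC content and masked share, receptor windows had between 1.07 and 1.15 times the peaks of other windows, with every interval above 1. Without chromosome Y they had between 1.00 and 1.09 times, and in GFP DOX and Cre mock the interval included 1.

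The dependence on masked share was steep in both kinds of windows. In Cre DOX, receptor windows with 20 to 30% of their bases masked had 18.7 midpoints per Mb and those with 80 to 90% had 166. Other windows without chromosome Y had 155 at 80 to 90%. In GFP DOX, the corresponding values for receptor windows were 7.37 and 84.4, and other windows without chromosome Y had 92.2 at 80 to 90%. Receptor windows with little masked sequence had fewer peaks than other windows in some lists. At 20 to 30% masked, GFP DOX had 7.37 midpoints per Mb in receptor windows (5.50 to 9.66) against 12 in the others, and Cre mock had 14.2 (11.5 to 17.2) against 23.8. In Cre DOX the values were 18.7 (15.6 to 22.2) and 17.2. At 90 to 100% masked, receptor windows of Cre DOX had 212 (182 to 245), above the 160 of the other windows without chromosome Y.

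**Figure D1:**
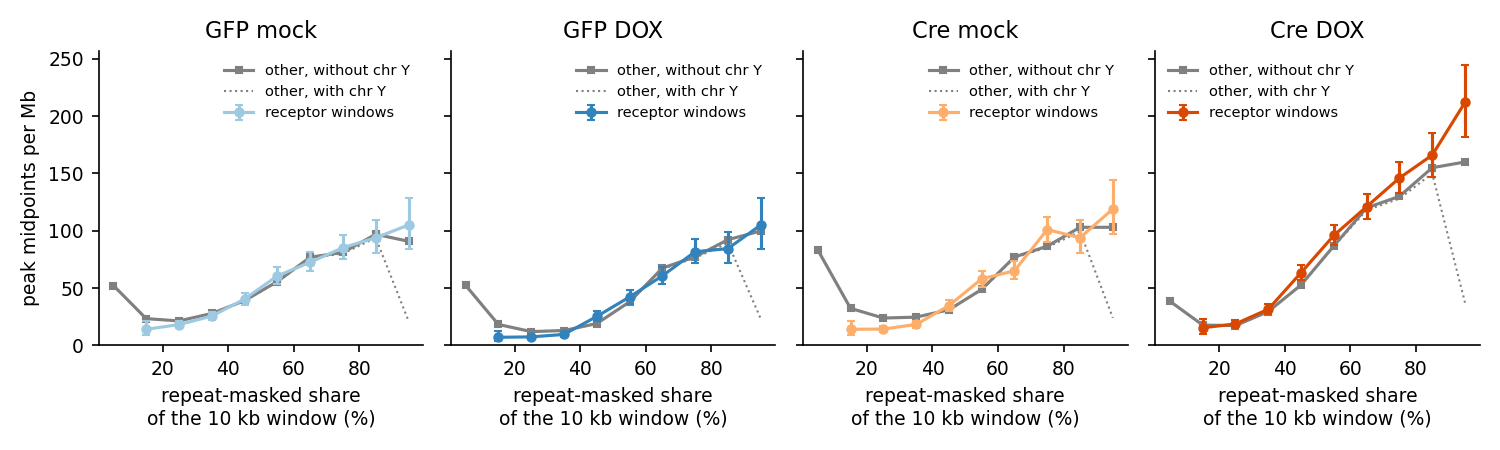
Peak midpoints per Mb (y) against the repeat-masked share of 10 kb windows (x, in %) for receptor windows (coloured, with 95% Poisson intervals, bands of at least 50 windows) and other windows without chromosome Y (grey), 1 panel per list. From 20 to 30% masked upwards, density is higher at high than at low masked shares in both kinds of windows, for example 166 and 155 at 80 to 90% in Cre DOX. The grey line also stands high at 0 to 10%, for example 83.3 in Cre mock. Of the 9 bands drawn, the other windows lie within the receptor interval in 8 (mock) and 5 (DOX) for GFP cells, and 3 (mock) and 5 (DOX) for Cre cells, and the dotted line shows how chromosome Y lowers the last band.

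The clusters were also denser than other sequence away from coding genes. Sequence over 10 kb from any protein-coding gene, 1361 Mb in all, had 33.2 peaks per Mb (mock) and 21.7 (DOX) in GFP cells, and 28.9 (mock) and 44.3 (DOX) in Cre cells. Other tandem gene families with restricted tissues, such as bitter taste receptors (Tas2r), defensins (Def) and keratin-associated proteins (Krtap), gave 306 genes and 7.60 Mb. Their densities were 32.8, 21.2, 26.2 and 47.6 peaks per Mb, each below that of the receptor clusters. They were also less masked, at 41.7%. The 65 fibroblast genes for matrix and cytoskeleton, such as collagens, Fn1, Vim and Actb, had the opposite order of the Cre lists, with 49.2 peaks per Mb without doxycycline and 34.7 with it. Their GFP values were 36.4 in mock and 29.6 in DOX. In Cre mock the fibroblast genes lay above the receptor clusters (43.3 per Mb), with overlapping intervals (44.2 to 54.6 against 41.2 to 45.5). In the other lists they lay below the clusters, with intervals that overlapped in GFP DOX (25.8 to 33.9 against 31.6 to 35.4). Only 17.9% to 34.1% of the peaks at fibroblast genes were mostly masked.

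**Figure D2:**
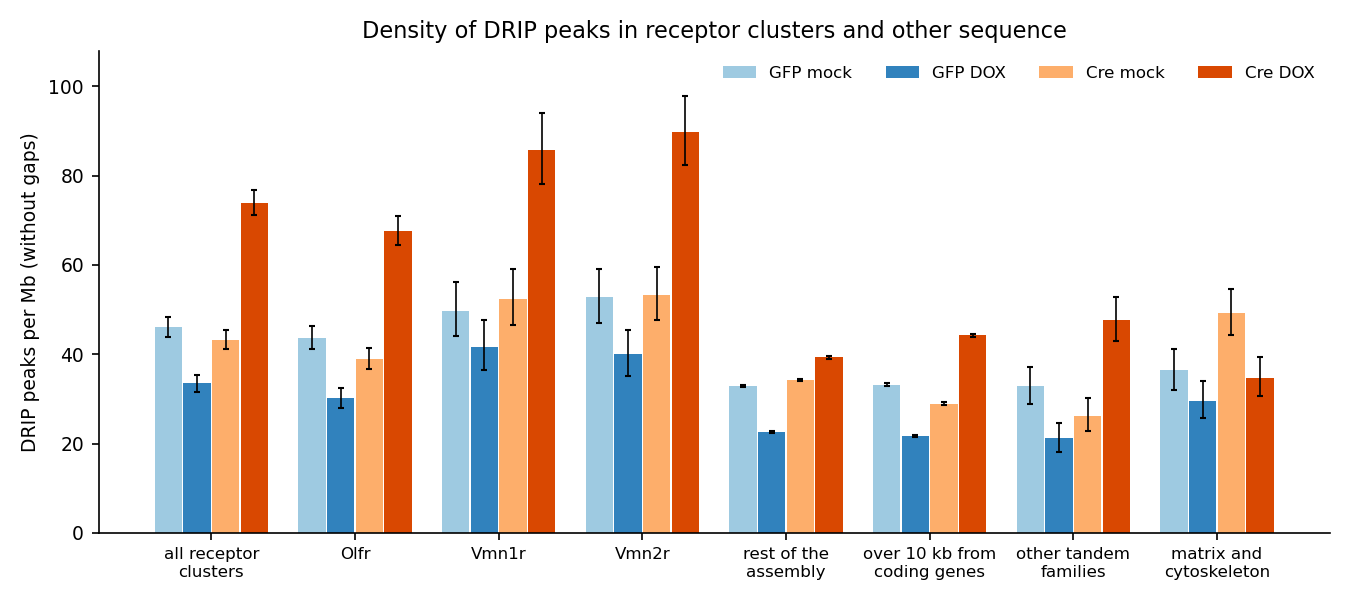
DRIP peaks per Mb of sequence without gaps (y) in the receptor clusters, in the clusters of each family, and in 4 other kinds of sequence (x), with bars for the 4 lists and 95% Poisson intervals that cover counting error only. The receptor bars reach 73.8 in Cre DOX, against 44.3 in sequence over 10 kb from coding genes and 34.7 at matrix and cytoskeleton genes.

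The families differed among themselves. Per Mb, Olfr clusters (24.7 Mb) had 43.6 (mock) and 30.1 (DOX) peaks in GFP cells, and 39.0 (mock) and 67.6 (DOX) in Cre cells. Vmn1r clusters (5.30 Mb) had 49.8, 41.7, 52.4 and 85.8 in the same order. Vmn2r clusters (5.94 Mb) had 52.8, 40.0, 53.3 and 89.8. Both vomeronasal families had higher densities than Olfr in every list, with intervals apart from it except for Vmn1r in GFP mock (44 to 56.2 against 41.1 to 46.3). The intervals of Vmn1r and Vmn2r overlapped in every list. Their masked shares, 52.2% for Vmn1r and 50.6% for Vmn2r, were above the 44.6% of Olfr, and the part of this in the difference was not tested. Sequence within 10 kb of receptor pseudogenes had 46.7, 31.2, 39.5 and 64.7 peaks per Mb, and that around protein-coding receptors, which overlaps it, had 45.6, 33.3, 43.2 and 74.0.

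Within the clusters, most peaks lay away from the receptor genes and their starts. Midpoints in sequence with no gene within 1 kb made up 70.6% (68.3 to 72.8), 75.3%, 71.8% and 72.7% of those in clusters, while this sequence is 53.7% of the clusters. Within 1 kb of a receptor start lay 57 (3.51%), 21 (1.78%), 39 (2.54%) and 77 (2.98%) midpoints, for 9.62% of the sequence. Receptor exons, 13.8% of the sequence, held 7.45%, 4.48%, 7.42% and 6.66%. Receptor introns came between, with 14.9%, 14.8%, 13.4% and 14.3% for 18.3% of the sequence. Among these 4 classes the order of the densities went with that of the masked shares, which are 23.2% near starts, 26.3% in exons, 40.9% in introns and 58.9% where no gene lies within 1 kb. The fifth class, sequence within 1 kb of another gene (38.4% masked), had 35.5, 26.4, 45.4 and 52.1 midpoints per Mb, in Cre mock above the 31.3 of the more masked introns.

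Around gene starts, receptor genes and other protein-coding genes gave opposite pictures. Receptor genes had 16.4 midpoints per Mb within 1 kb of the start in GFP mock and 48.3 at a distance of 5 to 10 kb, or 0.339 times as many near the start. In GFP DOX the value was 0.175, and in Cre cells 0.240 (mock) and 0.298 (DOX). At the 20291 other protein-coding genes (chromosomes Y and M left out) they were 2.64, 2.78, 2.46 and 1.98. The starts of both groups are poor in masked sequence, with 23.2% at receptor genes and 16.1% at the others, against 49.1% and 31.3% at 5 to 10 kb. Density at the start was thus above that of the surroundings at other genes and below it at receptor genes.

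**Figure D3:**
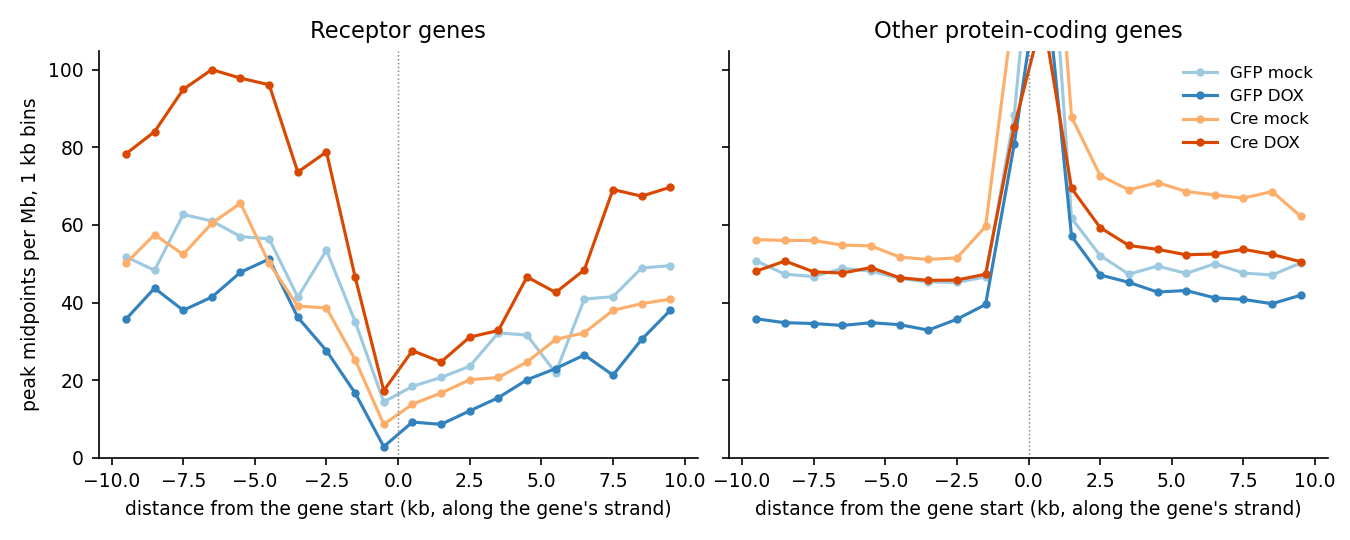
Peak midpoints per Mb in 1 kb bins (y) against the distance from the gene start in kb, positive along the gene (x), for 1738 receptor genes (left) and 20291 other protein-coding genes (right), 1 line per list. Receptor genes show a dip at the start, down to 2.88 per Mb in GFP DOX, where other genes reach 184 in Cre mock.

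The 10 kb flank is a choice, and peaks did not end there. From 5 to 10 kb outside the gene bodies, the density was 69.7 midpoints per Mb (mock) and 55.9 (DOX) in GFP cells, and 73.7 (mock) and 115 (DOX) in Cre cells. Just beyond the limit, from 10 to 15 kb, it was 64.5, 53.2, 60.6 and 99.4. Nearest to the genes, within 5 kb of the bodies, it was 44.7, 32.5, 39.8 and 71.1. The masked shares of the 3 rings, from the nearest to the farthest, were 49.3%, 64.4% and 61.2%.

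Few receptor genes had a peak in the body. In GFP mock it was 221 of 1738 (12.7%, 11.2 to 14.4), against 27.9% of all 55450 genes. In GFP DOX it was 130 (7.48%) against 22.3%, in Cre mock 173 (9.95%) against 30.6%, and in Cre DOX 258 (14.8%) against 26.9%. Receptor genes are short, with a median of 5782 bp against 19292 bp for other protein-coding genes, and a share of genes with a peak can depend on length. The percentage of body sequence under peaks was 1.35%, 1.01%, 1.44% and 3.80% at receptor genes against 1.24%, 1.24%, 2.17% and 2.39% at other protein-coding genes. By family, Vmn2r genes had a peak most often, with 50.4% (mock) and 41.3% (DOX) in GFP cells, and 45.5% (mock) and 58.7% (DOX) in Cre cells. Vmn1r genes had 19.5%, 15.2%, 17.1% and 25.7%, and Olfr genes 8.46%, 3.41%, 5.83% and 9.45%. The median gene length has the same order, with 27146 bp for Vmn2r, 6788 bp for Vmn1r and 5506 bp for Olfr. The part of gene length in these shares was not tested.

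No list had a peak in 1395 receptor genes (80.3%), and all 4 lists had one in 94 (5.41%). Over all 55450 genes these shares were 59.5% and 15.0%, and over other protein-coding genes, which are longer, 25.8% and 32.6%. The 94 receptor genes were 43 Vmn2r, 29 Olfr and 22 Vmn1r genes, and in 63 of them a peak reached an exon. Ranked by the lowest of their best scores over the 4 lists, the odorant receptor gene Olfr1489 (chromosome 19, 13631621 to 13643987) came first. The best score in Olfr1489 was 46 (mock) and 48 (DOX) in GFP cells, and 67 (mock) and 57 (DOX) in Cre cells, and all 6 peaks overlapped an exon. Vmn1r4 (chromosome 6) had scores of 62, 75, 39 and 40 and Vmn1r54 (chromosome 6) had 39, 40, 44 and 40, none of whose peaks overlapped an exon. The vomeronasal gene Vmn2r7 on chromosome 3 spans 159722 bp and held 13, 16, 11 and 16 peaks, none over an exon. Vmn2r genes resemble each other closely, and reads of 100 bp may not always separate them. Next came Olfr56, Vmn2r114, Vmn2r91, Vmn2r13, Olfr1474 and Olfr164, with lowest scores between 26 and 31. The pseudogene Olfr997-ps1, tied with the last of these at 26 and named after its values were seen, had all 4 peaks over an exon. Vmn2r114 (20 of 25 peaks) and Olfr1474 (6 of 6) had peaks over exons, while none of the peaks in Olfr56, Vmn2r91, Vmn2r13 and Olfr164 did. The annotated body of Olfr56 spans 156499 bp, and whether its peaks belong to other genes was not tested.

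The strength of member peaks was like that of other peaks. Their median score was 18 (mock) and 17 (DOX) in GFP cells, and 20 (mock) and 19 (DOX) in Cre cells, against 18, 17, 19 and 18 for other peaks. Peaks in the top decile of score of their list made up 10.3% of members in GFP mock (8.85 to 11.8) where 10.4% of all peaks are in it with ties. In GFP DOX they made up 10.2% (background 10.5%). In Cre cells they made up 9.76% without doxycycline (background 10.7%) and 12% with it (10.8 to 13.3, background 10.7%). The strongest peaks of the genome lay elsewhere. The highest score of a member was 266 (mock) and 149 (DOX) in GFP cells, and 206 (mock) and 111 (DOX) in Cre cells, against 1697, 1615, 2406 and 2235 elsewhere. The central 100 bases of 93.7% (Cre DOX) to 95.3% (GFP mock) of members occur once in the assembly as an exact match. For other peaks the values were 94.1% (Cre DOX) to 96.8% (Cre mock), and copies with a mismatch were not counted. Members were wider, with medians of 345, 401, 386 and 610 bp against 294, 350, 342 and 511 bp.

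The recurrent stretches were counted over all peaks. Among the 3516 regions made by merging overlapping member peaks of the 4 lists, the most common 20-mer occurred in 268 (7.62%). The 100 most common 20-mers, a set picked from these regions after seeing them, were found in 1104 regions (31.4%). In 300 bp windows at the midpoint they were present in 20.7% (mock) and 16.6% (DOX) of member peaks in GFP cells, and in 15.2% (mock) and 21.5% (DOX) in Cre cells. Other peaks had 13.1%, 9.63%, 8.84% and 17.8%. Of all 300 bp windows, 5.40% in the clusters and 2.77% in the rest held one. Since the set was picked from the member regions themselves, the values of members beside those of other peaks or of windows are a description, and the part of the choice in them was not tested. Regions in more lists held them more often, from 22% of regions in 1 list to 55.8% of regions in 4, and these were also longer, with medians of 317 bp and 2340 bp.

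**Figure D4:**
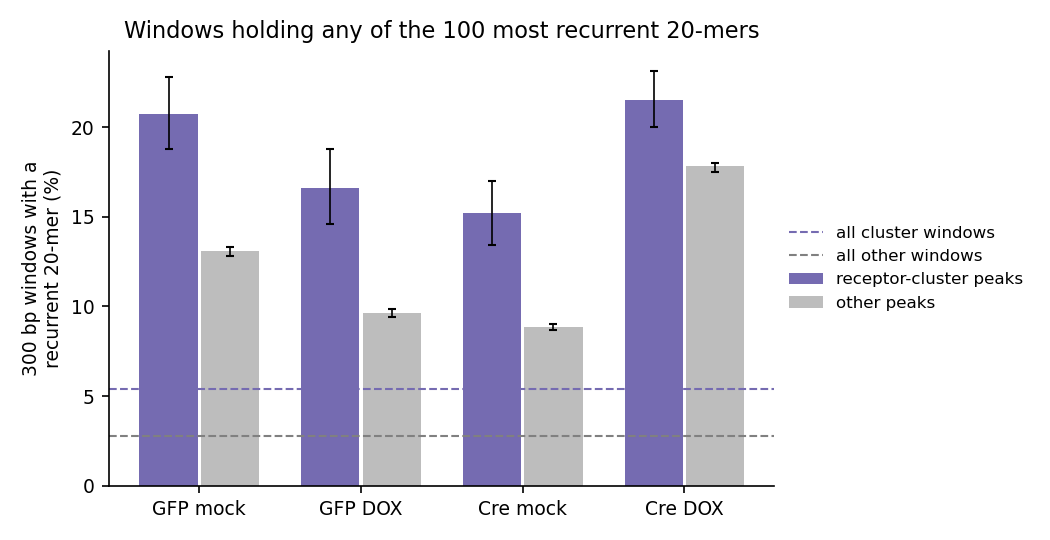
Share of 300 bp windows at peak midpoints (y, in %) holding any of the 100 most common 20-mers of the receptor-cluster regions, for member peaks and other peaks of each list (x), with exact 95% intervals. The 20-mers were picked from the member regions, so the member values beside those of other peaks and windows are a description. Member peaks reach 21.5% in Cre DOX, and the dashed lines are all cluster windows (5.40%) and all other windows (2.77%).

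Simple repeats were rare among members. CA repeats of at least 12 units lay in 1.15%, 0.332%, 0.899% and 0.527% of member windows, against 2.33%, 1.78%, 1.66% and 2.18% of other peaks and 1.60% of cluster windows. GA repeats (CT on the other strand) lay in 0.906%, 0.332%, 0.450% and 0.226%, against 1.08%, 0.629%, 0.802% and 0.710% of other peaks. TA repeats lay in only 1 to 4 member windows a list, or 0.0604% to 0.151%, against 0.0233% to 0.0557% of other peaks. Predicted G-quadruplexes (G4Hunter score of at least 1.5 in 25 bases, either strand), which the study relates to Rtel1, were fewer than elsewhere. They lay in 11.7%, 5.56%, 7.06% and 6.40% of member windows. Other peaks had 24.7%, 18.5%, 22.1% and 14.1%, and all cluster windows 10.7%. Members thus held G4 sequences more rarely than the cluster sequence itself in GFP DOX, Cre mock and Cre DOX, and about as often in GFP mock (10.2 to 13.3). Runs of at least 15 A or T lay in 1.51% to 1.99% of members against 1.34% of cluster windows.

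The DNA was cut with 5 restriction enzymes before the pull-down. Clusters have 2.16 sites per kb against 1.86 in the rest. The median fragment under a member peak was 1007 bp (mock) and 900 bp (DOX) in GFP cells, and 970 bp (mock) and 954 bp (DOX) in Cre cells, against 1369, 1329, 1470 and 1212 bp under other peaks. The part of fragment length in the density was not tested.

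Clusters differed widely. Of the 671, 67.8% (mock) and 57.4% (DOX) held a peak in GFP cells, and 68.0% (mock) and 79.4% (DOX) in Cre cells, and 322 held one in all 4 lists. These shares depend on the length of the clusters, and stretches of like length elsewhere were not set beside them. Among the 84 clusters of at least 5 genes, the median density was 34.0 peaks per Mb (mock) and 23.0 (DOX) in GFP cells, and 29.9 (mock) and 61.4 (DOX) in Cre cells. In the mock lists and GFP DOX, between 38 and 43 of these 84 lay above the rest of the assembly, and in Cre DOX 63 did. The median large cluster was therefore close to the rest of the assembly in GFP mock and GFP DOX, below it in Cre mock and above it in Cre DOX.

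The densest of these 84 was a cluster of 5 genes from Olfr996 to Olfr1000 on chromosome 2 (85569215 to 85621903), with 15 (mock) and 12 (DOX) peaks in GFP cells, and 12 (mock) and 15 (DOX) in Cre cells. In peaks per Mb these were 285, 228, 228 and 285, the highest of every list among clusters of at least 5 genes. A cluster of 8 genes from Olfr309 to Olfr301 on chromosome 7 (86294474 to 86424024) had none in any list, which allows up to 23.2 peaks per Mb. A cluster of 12 genes from Olfr433 to Olfr420 on chromosome 1 had 3 peaks in Cre DOX and 0 in every other list, which allows up to 21.2 per Mb there. The largest, with 42 genes from Olfr1038-ps to Olfr1081-ps1 on chromosome 2, had 11, 6, 9 and 17 peaks, or 23.5, 12.8, 19.2 and 36.3 per Mb. The next in number of genes were 27 genes from Olfr1010 (11.1, 5.57, 2.79 and 13.9 per Mb) and 29 from Olfr605 (8.08, 8.08, 5.38 and 26.9). Then came 21 genes from Olfr93 on chromosome 17 (59.0, 48.6, 52.1 and 62.5) and 4 clusters of 16 genes, of which 2 were named by the rule and the other 2, tied with them, after their values were seen. On chromosome 7, those from Olfr665 had 25.6, 29.8, 42.6 and 80.9 per Mb, and those from Olfr699 had 29.4, 0, 21 and 71.4. The tied clusters had 8.75, 8.75, 17.5 and 21.9 from Olfr631 on chromosome 7, and 32, 9.14, 13.7 and 22.8 from Olfr796 on chromosome 10. Of these 8 largest clusters, the one on chromosome 17 alone exceeded the rest of the assembly in every list.

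**Figure D5:**
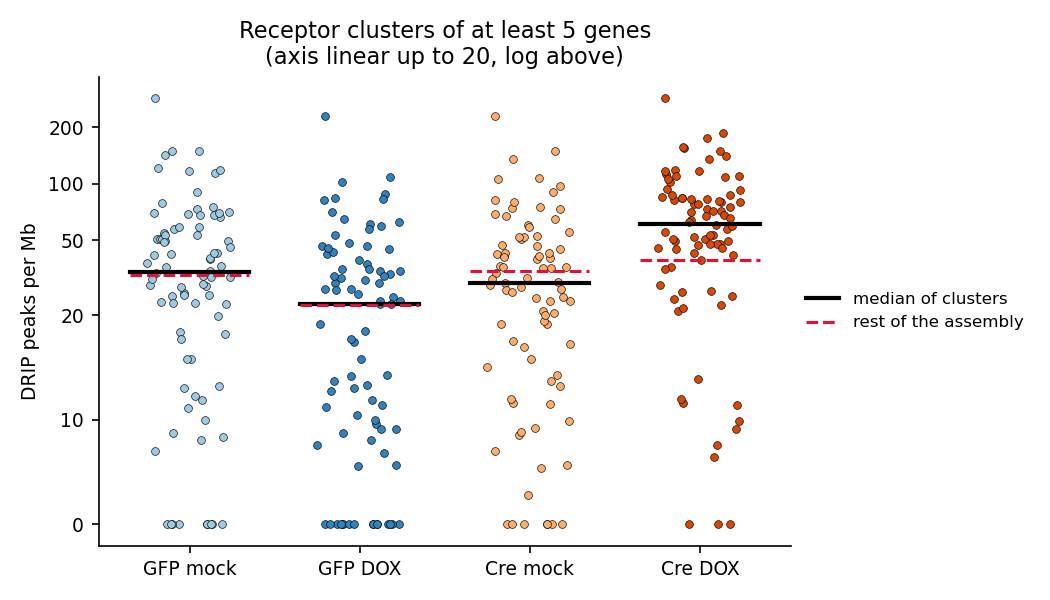
DRIP peaks per Mb (y, linear up to 20 and logarithmic above) in the 84 receptor clusters of at least 5 genes, 1 point per cluster, for each list (x), with the median (black line) and the rest of the assembly (dashed red line). The median lies close to the dashed line in GFP mock and GFP DOX, below it in Cre mock (29.9 against 34.3) and above it in Cre DOX (61.4 against 39.2), and the topmost point of each list is the cluster from Olfr996 to Olfr1000.

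Chromosomes carried the clusters unequally and also differed in peak density. On the 10 chromosomes with at least 1 Mb of clusters, the ratio to the rest of the same chromosome ranged from 0.982 to 2.70 in GFP mock, from 1.07 to 3.30 in GFP DOX, from 0.817 to 2.30 in Cre mock and from 1.60 to 3.32 in Cre DOX. Its interval lay above 1 on 7, 8, 7 and 10 of them. Chromosome 7 holds 447 receptor genes, the most of any, and had ratios of 1.05 (0.897 to 1.22), 1.07, 0.960 and 1.76 (1.59 to 1.93). Of these 10, chromosome 14 had the highest ratio in every list. With the expected number taken from the rest of the same chromosome, the ratios over all clusters were 1.53, 1.61, 1.32 and 2.02.

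Numbers of members moved differently with doxycycline in the 2 kinds of cells, 1 library each, so the difference was not tested. In GFP cells DOX had 0.727 times the members of mock, and 0.687 times the other peaks. In Cre cells it had 1.71 times the members and 1.14 times the other peaks, and peaks covered 2.76 times as much of the clusters, against 1.85 times as much of the rest. At a −log10 q of at least 2, Cre cells had 813 members in mock and 1280 in DOX (1.57 times, and 2.82 times the sequence), against 1.03 times for other peaks. At a −log10 q of at least 5 few members were left, 42 in mock and 33 in DOX (0.786 times), against 0.548 times for other peaks. In GFP cells these limits gave 0.580 and 0.356 times for members, against 0.519 and 0.436 for other peaks. Cre mock had 0.941 times the members of GFP mock, against 1.04 times for other peaks, and Cre DOX had 2.21 times those of GFP DOX, against 1.74 times.

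Peaks of 1 list that overlapped no peak of another were also counted. With 1 library per group and unknown depth, they do not show which hybrids RNaseH1 removed or which differ with Rtel1. Of GFP mock members, 1029 of 1655 (62.2%, 59.8 to 64.5) had no overlapping peak in GFP DOX. The background over all GFP mock peaks was 69.4%. Of Cre mock members, 421 of 1557 (27.0%, 24.8 to 29.3) were absent from Cre DOX, against 51.3% of all. The shares of members were thus below the background, by the most in Cre cells. Cre DOX covers more of the clusters than any other list (6.79%), and the part of this in the lower share was not tested. With the top decile of both lists the share was 70.6% for GFP cells and for Cre cells it was 62.5%, against 62.2% and 27.0% with all peaks. The background over all top-decile peaks was 75.3% for GFP cells and 76.2% for Cre cells.

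In the reverse direction, 586 of 1204 GFP DOX members (48.7%) were absent from GFP mock (background 57.0%), and 1670 of 2656 Cre DOX members (62.9%) from Cre mock (background 63.6%). Between the mock lists, 860 Cre mock members (55.2%, 52.7 to 57.7) were absent from GFP mock (background 64.8%) and 929 GFP mock members (56.1%, 53.7 to 58.5) from Cre mock (background 61.5%). With doxycycline, 1826 Cre DOX members (68.8%) were absent from GFP DOX (background 70.3%) and 211 GFP DOX members (17.5%, 15.4 to 19.8) from Cre DOX (background 37.5%). Absent members scored lower, with medians of 17 against 20 in GFP mock against GFP DOX and 18 against 20 in Cre mock against Cre DOX. They were also narrower, at 273 against 550 bp and 218 against 459 bp.

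Over the 3516 merged regions, 484 (13.8%, 12.6 to 14.9) had a peak in all 4 lists, compared with 8.91% of all 194867 merged regions of the genome. Regions in 1 list alone numbered 2017 (57.4%) against 66.4% of all. Cre DOX alone accounted for 1181 (33.6% against 24.9% of all), GFP mock alone for 393 (11.2% against 17%), Cre mock alone for 311 (8.85% against 17.8%) and GFP DOX alone for 132 (3.75% against 6.73%). Of the regions in 1 list, those of Cre DOX alone made up more of the member regions than of all regions, and those of the other lists less.

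The highest scores of regions in 1 list alone were 74 and 67 in GFP mock, 43 and 34 in GFP DOX, 87 and 70 in Cre mock, and 52 and 49 in Cre DOX, and these lay near Vmn1r205, Olfr595-ps1, Vmn2r118, Vmn2r13, Vmn1r101, Olfr271-ps1, Olfr1110 and Olfr1249 in this order.

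At the other end were very wide peaks present in every list. The widest member of GFP mock (9590 bp), Cre mock (10078 bp) and Cre DOX (11788 bp) was the same stretch in an intron of Vmn1r54 on chromosome 6, 92.3% to 93.3% masked, with scores of 39, 44 and 40. That of GFP DOX (9863 bp) lay 2683 bp from Olfr1439-ps1 on chromosome 19, 99.2% masked. The other regions of high rank in all lists were near Vmn1r238 on chromosome 18 (scores of 63, 56, 50 and 62, and 4152 bp wide in GFP mock) and near Vmn2r11 on chromosome 5 (57, 37, 74 and 57). The region near Vmn2r3 on chromosome 3 had the next highest score of GFP mock, 154.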

How the data were processed

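DRIP-seq libraries of the 4 groups were analysed as peak lists. As the study's methods and the labels state, the authors sequenced single-end 100 bp reads, ran nf-core/chipseq 1.2.1 (Trim Galore, BWA) on mm10 and called peaks with MACS2. The control for calling is not given in the sources used here. The command in the methods asks for narrow peaks, while the deposited lists are broad-peak files, so the settings of the calling are not certain. The deposited score was 10 times the −log10 q, rounded down, for 99.9962% of peaks. The authors' lists also hold a fold enrichment (a ratio) and the −log10 p-value and −log10 q-value of each peak. No read counts were used, so the depth is unknown.

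Clusters were the bodies of genes named Olfr, Vmn1r or Vmn2r with a number in GENCODE M21, with 10 kb flanks, merged, and a peak was a member if it overlapped by 1 bp. The members and lists were chosen with earlier results of these data known. Density was peaks per Mb without gaps, and lower-case bases of the reference were taken as repeat-masked. Intervals were exact, Clopper-Pearson for shares and Poisson-based for densities, at 95%, and a limit for 0 peaks was 3 peaks. They cover counting error only. With 1 library per group, no test between conditions was run. Positions and genes named were the highest-scoring members of each list, the regions with the best ranks in all 4 lists, the strongest regions of 1 list alone, the clusters with the most genes or with extreme density, the genes with a peak in all lists by lowest score, and the widest members. The 20-mers, the region with the most of them and the chromosome settings were chosen after seeing the data. Python 3.11.15, numpy 2.4.6, pandas 2.3.3, scipy 1.17.1 and numba 0.67.0 were used, and the scripts were tested on simulated data. Alternatives were stricter score limits, other member rules, masked share, GC strata and other reference sequence.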

Additional observations from a re-analysis of the deposited data

Results flagged for a closer look

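Over all peaks, the values of the receptor clusters in DOX against mock had opposite directions in GFP and Cre cells. Each group had 1 library, and the difference was not tested. DOX had 0.727 times the member peaks of mock in GFP cells, but in Cre cells it had 1.71 times as many. The sequence under member peaks in DOX was 0.846 times that of mock for GFP cells and 2.76 times that of mock for Cre cells, against 0.885 and 1.85 in the rest of the assembly. Receptor genes with a peak in the body were 0.588 times as many with DOX as with mock for GFP cells, and for Cre cells 1.49 times as many, while over all genes these values were 0.802 and 0.879. Numbers of peaks outside the clusters had the same directions as those of members, at 0.687 and 1.14 times. With a −log10 q of at least 2, the member ratio of Cre cells was 1.57 and that of GFP cells 0.580. With a −log10 q of at least 5, where 42 and 33 members of Cre cells were left, the member ratio of Cre cells was 0.786 and that of GFP cells 0.356. The directions were then the same, with fewer members in DOX than in mock.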

How the results depend on the processing

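The values in this section follow the order GFP mock, GFP DOX, Cre mock, Cre DOX where 4 are given. The density ratio of clusters to the rest (1.40, 1.48, 1.26 and 1.88) changed direction for gene bodies without flanks in all lists but Cre DOX (0.919, 0.817, 0.763 and 1.17), and the interval of GFP mock included 1. It also did for peaks at most 50% masked per unmasked base (0.667, 0.472, 0.472 and 0.892), where the interval of Cre DOX included 1 (0.787 to 1.01). Within strata of GC and masked share it was 1.12, 1.07, 1.10 and 1.15, and without chromosome Y 1.07, 1.00, 1.04 and 1.09. Expected within chromosomes it was 1.53 (GFP mock), 1.61 (GFP DOX) and 2.02 (Cre DOX). For Cre mock and Cre DOX it was 1.41 and 2.16 at a −log10 q of at least 2, 1.15 (0.971 to 1.35, which includes 1) and 2.10 in the top decile, 1.44 and 1.68 away from other genes, and 1.5 and 1.67 against sequence over 10 kb from coding genes. The other 25 of 52 values stayed within the counting interval. The settings within chromosomes, without chromosome Y and against sequence far from coding genes were added after seeing the data.

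The absent shares, in the order GFP mock from GFP DOX, Cre mock from Cre DOX, Cre mock from GFP mock and GFP mock from Cre mock, were 62.2%, 27.0%, 55.2% and 56.1%. They were 74.3%, 40.2%, 64.8% and 59.0% at a −log10 q of at least 2 (all peaks 77.6%, 60.6%, 70.1% and 65%), and 70.6%, 62.5%, 63.2% and 65.9% in the top decile, where fewer peaks remain to overlap (all 75.3%, 76.2%, 70.1% and 67.9%). They were 69.1%, 35.5%, 58.2% and 61.9% for gene bodies (all peaks 69.4%, 51.3%, 64.8% and 61.5%), 76.0%, 35.8%, 71.3% and 69.6% where 50% of the peak had to be covered, a stricter rule by construction (all 79.7%, 60.0%, 78.7% and 72.8%), and 75.6%, 54.4%, 59.3% and 60.7% for peaks at most 50% masked (all 73.4%, 74.9%, 73.4% and 62.8%). Members lay above all peaks for GFP mock from GFP DOX among peaks at most 50% masked, where the interval (69.7 to 80.9) included the share of all, and for GFP mock from Cre mock in gene bodies (56.9 to 66.6, likewise). The other 12 of 32 values stayed within the interval. Elsewhere the cause was not tested. No paired analysis was possible because each group had 1 library. The depth is unknown, and a list of peaks shows neither weak signal nor reads that map to several places.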
